A study of Mus musculus with 25 samples.

Results

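The collagen genes of mouse skin stem cells, healing wounds and squamous tumours are described here as RNA levels in 21 libraries of sorted cells and as open chromatin at their promoters in 4 pooled ATAC-seq samples, an assay that reads DNA accessibility with a transposase. Members are the gene symbols that consist of Col, a number, a and a number, without Col17a1, and with 10 or more counts in at least 1 library. Of 24061 symbols in the count table, 44 fitted the pattern, 43 remained without Col17a1 and 42 were members. Col9a1, with at most 6 counts in a library, fell below the minimum, and Col22a1, with at most 13, lay just above it. The choice also asked which collagens belong to the epithelium and which follow fibroblast RNA.

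The RNA libraries came from female B6 mice at postnatal day 60 and fall into 3 sets, named after the prefixes of their titles. In the set CL there were 2 libraries each of wounded hair follicle stem cell lineage (HFSC lineage; lineage-marker negative, integrin A6 high, YFP+), wounded epidermal stem cells (EpdSC; the same gate but YFP-), unwounded HFSC (A6 high, CD34+ Sca1-) and unwounded EpdSC (A6 high, CD34- Sca1+). YFP in the wounded CL libraries came from Sox9CreER;R26-YFP, in which a Cre recombinase driven by Sox9 and induced by a drug marks cells and their progeny, so a wounded YFP- cell is any A6 high, lineage-negative cell that the Cre had not marked. In the set BK there was 1 library of wounded EpdSC (A6 high, with no YFP mark), 2 of HFSC and 2 of EpdSC. In the set DS there were 6 libraries of GFP+ cells from grafted tumours, with both an A6 high and an A6 low sort of the HRas, the HRas TbrKO and the TbrKO genotype, as well as a single HFSC and a single EpdSC library whose titles carry Tbr, a name the labels do not spell out. The ATAC samples came from female mice of a CD1/B6 mix and were wounded cells (A6+, Sca1+, from full- and partial-thickness wounds), tumour-initiating cells of HRas-induced squamous cell carcinoma (A6 high, integrin B1 high, GFP+), and HFSC and EpdSC of back skin at postnatal day 50. The gate changed together with the wound, so a wounded library and its unwounded partner differ in both. The labels do not state whether the libraries of 1 group stem from different mice. Each p-value therefore describes library-to-library spread alone, and that spread may be technical. In the tumour comparisons it also holds differences between genotypes and, in the Tbr skin group, between HFSC and EpdSC.

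Collagens are secreted or membrane-bound proteins whose chains wind into triple helices. Types I, III and V build the fibrils of the dermis and are made mainly by fibroblasts, whereas type IV forms the network of the basement membrane on which keratinocytes sit. The chains encoded by Col4a1 and Col4a2 assemble together, those of Col4a3 and Col4a4 assemble with that of Col4a5, and Col4a5 and Col4a6 form a further type IV network that is found in skin. Type VI forms beaded filaments from the products of Col6a1, Col6a2 and Col6a3, type VII forms the anchoring fibrils below the basement membrane and is made largely by keratinocytes, and Col18a1 encodes a basement membrane collagen that carries heparan sulfate chains.

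Library totals ranged from 14216472 to 36425082 counts. The 7 keratinocyte genes fixed as a check (Krt5, Krt14, Itga6, Itgb4, Trp63, Cdh1 and Col17a1) had 10 or more counts in all 21 libraries. Their summed levels were 22300 to 157900 CPM, mostly from Krt5 and Krt14. CPM are counts scaled to the library size, here with TMM factors. The 7 follicle stem cell genes, Cd34 among them, were called higher in HFSC than in EpdSC, 7 of 7, and 7 of 7 were called lower in the wounded HFSC lineage than in HFSC. CPM are not divided by gene length, so levels are compared between libraries and not between genes. In sorted bulk cells, fewer cells of a type and less RNA per cell cannot be told apart.

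To separate epithelial collagens from those that follow fibroblast RNA, the level of each member was correlated by rank (Spearman's rho, over 21 libraries) with the summed CPM of 12 fibroblast genes that are not collagens. The libraries share sets and depth, so rho is a description without a p-value. A rho of 0.6 or more was called following, below 0.3 not following, and the values between them intermediate. By this measure 21 of the 42 members followed, 7 were intermediate and 14 did not follow. The share of all genes that follow was not counted, here or in the alternatives below. Whether collagens follow more often than other genes therefore cannot be told. The fibril-forming genes Col5a1, Col1a1, Col5a2, Col5a3 and Col1a2 had rho of 0.914, 0.875, 0.847, 0.843 and 0.839. Type VI gave 0.849 for Col6a2, 0.816 for Col6a3 and 0.632 for Col6a1. At the other end stood Col23a1 with -0.669 and Col4a6 with -0.66, followed by Col19a1 at -0.544, Col20a1 at -0.514, Col7a1 at -0.462, Col4a5 at -0.414 and Col16a1 at -0.381. Near 0 lay Col4a4 at 0.183, Col8a2 at 0.126 and Col4a3 at 0.021. Col4a1 and Col4a2 followed, at 0.758 each, and Col8a1 was intermediate at 0.512.

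The fibroblast list was dominated by 1 gene outside the tumours. Fbln1, a matrix glycoprotein, made up 64.7% to 99.4% of the summed list in the 15 libraries of skin and wounds and 5.83% to 51.5% in the 6 tumour libraries. Fbln1 read 76.6 and 90.7 CPM in CL HFSC and 362.8 and 336.3 CPM in BK HFSC, against 3.37 and 3.31 CPM in CL EpdSC and 63.6 and 14.0 CPM in BK EpdSC. Decorin (Dcn) and lumican (Lum), proteoglycans that mark fibroblasts, were near 0 in the same HFSC libraries. Dcn read 0.0612 to 0.535 CPM and Lum 0 to 0.0294 CPM. Pdgfra, also on the list, read 0.582 to 1.625 CPM in these HFSC libraries, against 0 to 0.379 CPM in EpdSC. Of the 4 list genes tested between HFSC and EpdSC, 2 were called higher in HFSC, Fbln1 and Pdgfra, and 0 lower. Without Fbln1, an alternative chosen after seeing the data, 23 members followed, 5 were intermediate and 14 did not follow. With that change rho was higher for Col3a1 (0.953) and Col6a3 (0.931) and lower for Col6a1 (0.392), Col12a1 (0.465) and Col18a1 (0.569), which then counted as intermediate. Without the tumour libraries 13 members followed on the whole list and 6 without Fbln1. With both left out, rho was 0.336 for Col5a2, 0.214 for Col6a2, 0.143 for Col4a1 and 0.129 for Col4a2. For Col3a1 and Col6a3 it stayed at 0.875 and 0.836. Within CL alone 11 followed on the whole list and 15 without Fbln1. Col4a3 to Col4a6, Col8a2, Col16a1, Col19a1, Col20a1, Col6a6, Col7a1 and Col23a1 were among the members that did not follow with Fbln1 or without it.

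**Figure D1:**
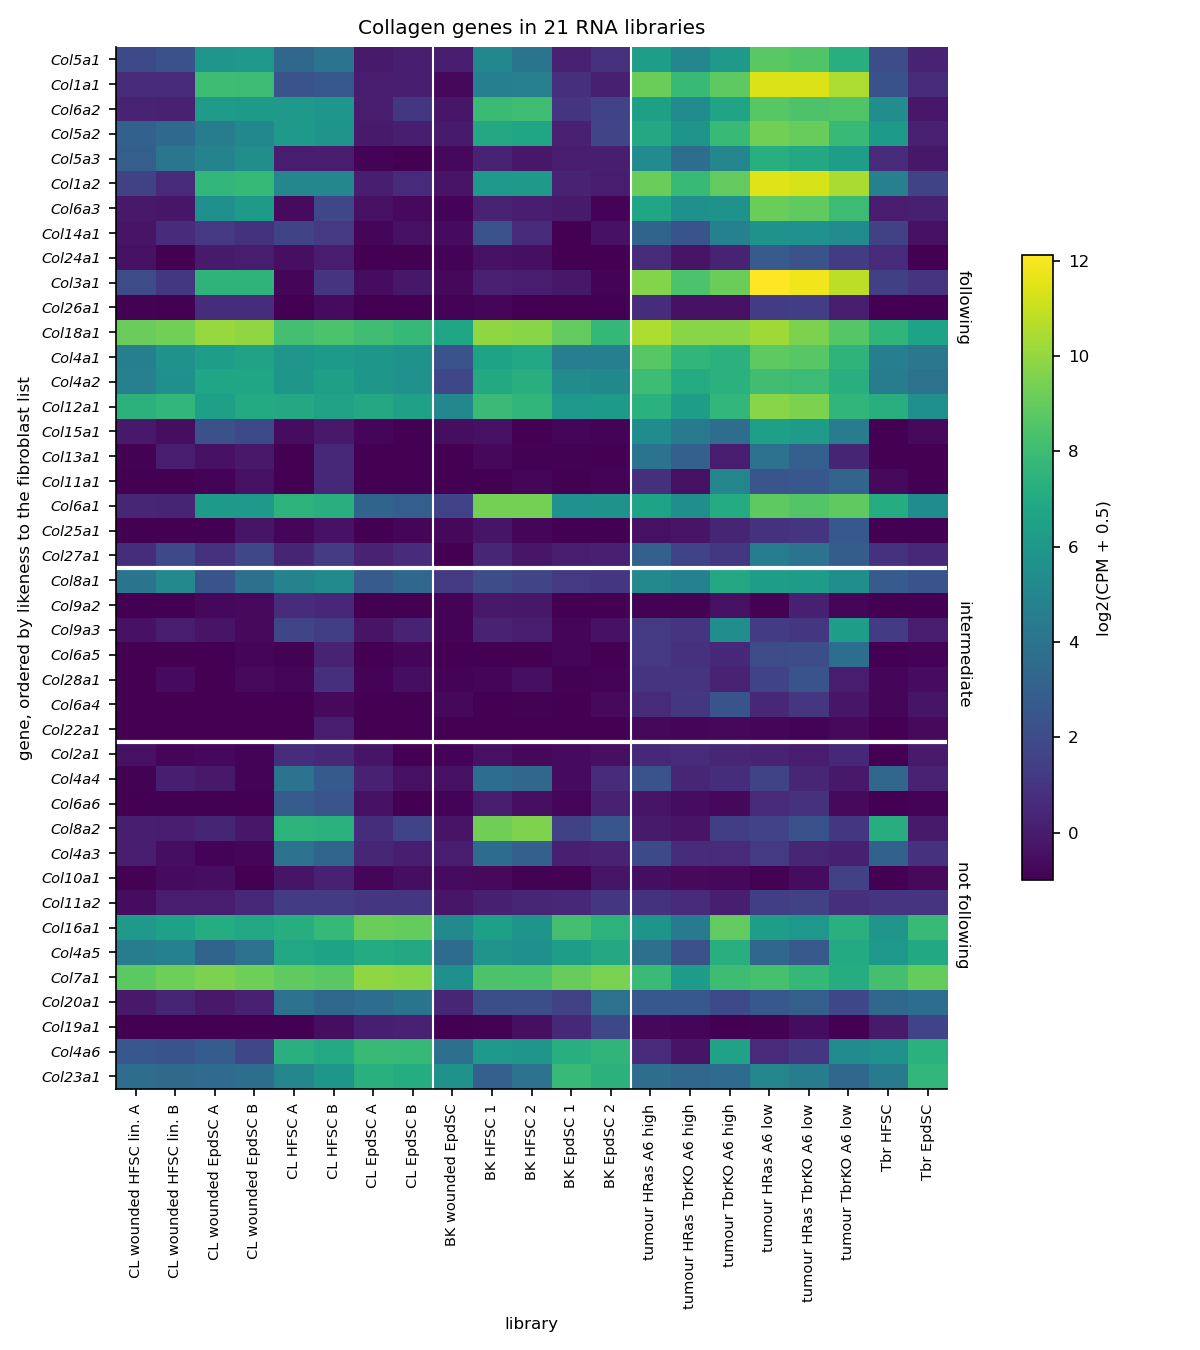
Level of the 42 collagen genes in each of the 21 RNA libraries, as log2(CPM + 0.5) on the colour scale, with genes down the page ordered by rho to the fibroblast list and white lines between the following, intermediate and not following members and between the sets CL, BK and DS. Col1a1, Col1a2 and Col3a1 peak in the A6 low tumour libraries (1440 to 2770 CPM for Col1a1), while Col8a2 peaks in HFSC (143 to 767 CPM) and Col23a1 and Col4a6 in EpdSC.

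The ratio of a collagen to the 11 fibroblast genes other than Fbln1 showed which members kept step with fibroblast RNA. In the 6 tumour libraries the ratio ranged from 1.55 to 3.41 for Col1a1, from 1.96 to 4.54 for Col3a1, from 0.265 to 0.598 for Col6a3, from 0.381 to 0.685 for Col6a1 and from 0.346 to 0.506 for Col6a2. Across the same libraries the ratio spanned 587-fold for Col4a6 and 102-fold for Col4a5. The median ratio of the 5 HFSC libraries, set against the tumour median, was 0.0734 times as high for Col3a1 and 0.403 times as high for Col6a3, but 58.8 times as high for Col5a2, 162 times for Col6a2, 376 times for Col6a1 and 63940 times for Col8a2. Across the tumours Col6a1 and Col6a2 therefore moved with fibroblast RNA. Their ratio was far higher in HFSC, while that of Col6a3, whose chain joins theirs in type VI collagen, was not. High HFSC ratios were not particular to these genes. Col7a1, Col23a1 and Col16a1, all called lower in HFSC than in EpdSC, gave 237, 165 and 140 times the tumour median. In EpdSC the ratio of Col6a1 was also above the tumour range, at 5.05 to 182, against 30.5 to 299.5 in HFSC. The ratio of Col6a2 in EpdSC spanned 0.0926 to 9.17. The divisors were small in skin, with summed levels for the 11 genes of 1.04 to 4.46 CPM in HFSC and 0.28 to 4.44 CPM in EpdSC. In the tumours they were 118 to 1209 CPM. A gene of like level in HFSC and tumours therefore has a far higher ratio in HFSC.

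**Figure D2:**
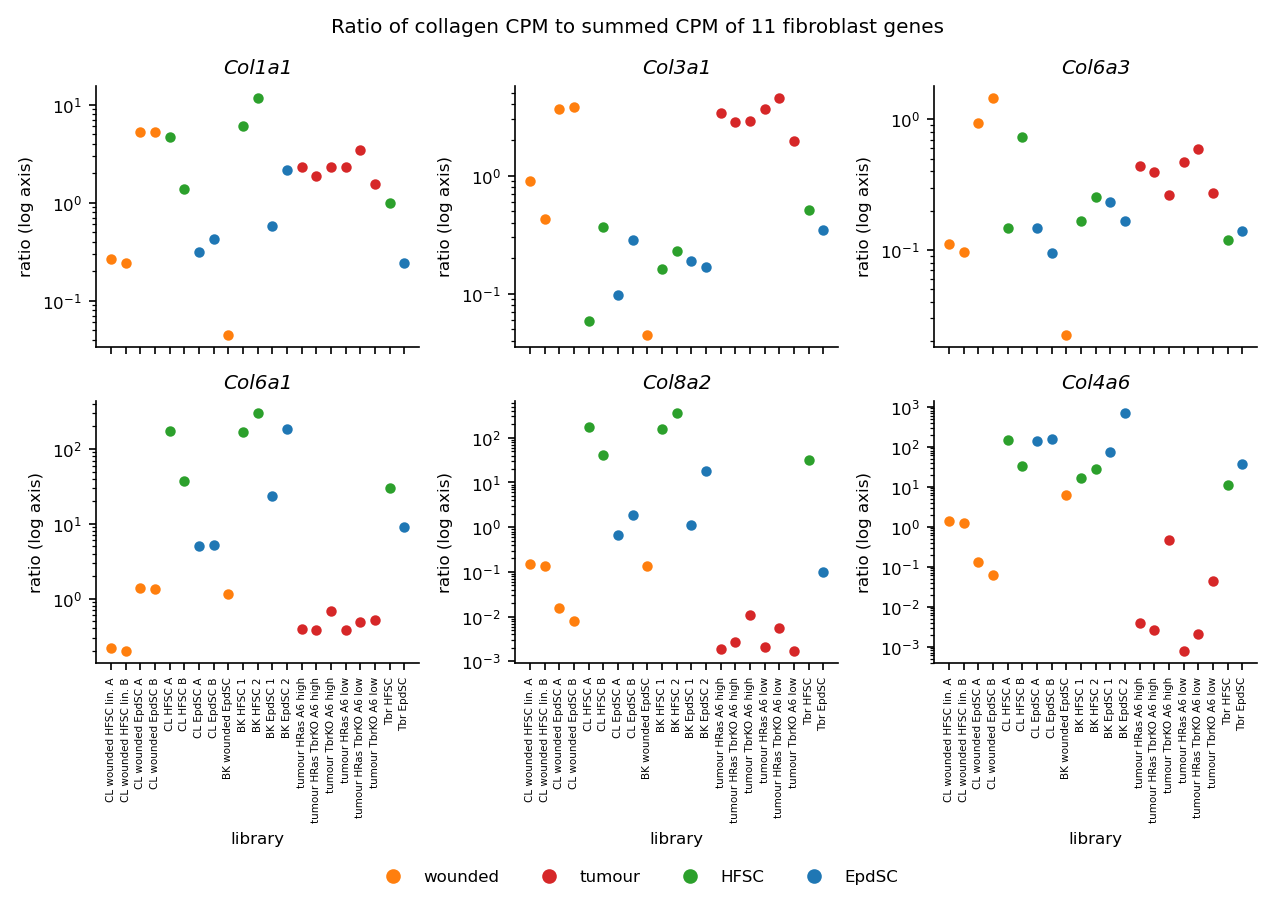
Ratio of the CPM of 6 collagens to the summed CPM of 11 fibroblast genes (without Fbln1), on log axes with 1 point per RNA library, coloured by wounded skin, tumour, HFSC and EpdSC. Col1a1 and Col6a1 hold narrow ranges in the tumours (1.55 to 3.41 and 0.381 to 0.685). Col6a1 and Col8a2 lie higher in HFSC, and also in EpdSC, than in tumours, where the divisor is far larger.

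HFSC and EpdSC were set against each other to ask how the collagens differ between the stem cells of the follicle and of the epidermis. Of the genes tested, 4 of 8 fibril-forming, 2 of 4 type VI, 4 of 6 type IV and both type VIII genes were called higher in HFSC, whereas those called lower were Col23a1, Col16a1, Col19a1, Col4a5, Col4a6 and Col7a1. Of 30 members tested in 4 libraries against 4, with the set as a block, 15 were called higher and 6 lower in HFSC by edgeR's quasi-likelihood test at an adjusted p of 0.05. Over all 13870 genes tested, 13.8% were called higher and 9.82% lower. The members' median log2 fold change was 1.43, against -0.03 over all genes. Within CL alone and within BK alone 12 were called higher and 3 lower in each.

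Far apart were the levels of Col8a2, a chain of the short-chain type VIII network known from corneal and vascular basement membranes. Col8a2 read 179 and 168 CPM in CL HFSC and 620 and 767 CPM in BK HFSC, against 1.14 and 2.59 CPM in CL EpdSC and 2.36 and 5.18 CPM in BK EpdSC. All 4 HFSC libraries lay far above the EpdSC libraries, and the log2 fold change was 7.07 ± 0.42 (SE, adjusted p 1.55e-05). Its partner Col8a1 differed less, by 1.48 ± 0.31 (adjusted p 0.00899), and missed the threshold within CL (adjusted p 0.0856) and within BK (0.223). The Tbr libraries of the set DS, which were not part of this test, read 143 CPM of Col8a2 in HFSC and 0.452 CPM in EpdSC.

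Among the 8 fibril-forming genes tested, Col1a1, Col1a2, Col5a1 and Col5a2 were called higher and none lower in HFSC. Col5a2, a chain of the type V collagen that sets fibril diameter, read 68.5 and 53.9 CPM in CL HFSC and 122 and 107 CPM in BK HFSC, against 0.463 and 0.583 CPM in CL EpdSC and 0.658 and 2.80 CPM in BK EpdSC (log2 fold change 6.40 ± 0.45, adjusted p 2.8e-05). Col1a1, a chain of type I collagen, read 4.84 and 5.56 CPM in CL HFSC and 24.4 and 25.6 CPM in BK HFSC, against 0.547 and 0.583 CPM in CL EpdSC and 1.2 and 0.607 CPM in BK EpdSC (4.03 ± 0.40, adjusted p 0.000161). The HFSC and EpdSC libraries did not overlap for either gene, and Col1a1 was higher in BK HFSC than in CL HFSC. Col3a1, the type III collagen of young dermis, averaged 0.678 ± 0.604 CPM in HFSC and 0.248 ± 0.17 CPM in EpdSC (SD, n = 4 each) and did not pass the test (1.37 ± 0.90, adjusted p 0.301).

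In type VI collagen the chains did not move together. Col6a1 averaged 414 ± 287 CPM in HFSC and 28.9 ± 24.3 CPM in EpdSC (SD, n = 4 each), with a log2 fold change of 4.04 ± 0.22 (adjusted p 1e-05). Col6a2 was higher by 6.51 ± 0.41 (adjusted p 1.97e-05), while Col6a3 stayed at 0.153 to 2.96 CPM in HFSC and 0.0467 to 0.478 CPM in EpdSC and was not called (1.97 ± 0.97, adjusted p 0.175). Col6a6, a chain that can replace that of Col6a3, read 6.49 and 5.08 CPM in CL HFSC and 0.507 and 0.236 CPM in BK HFSC, against 0.253 and 0 CPM in CL EpdSC and 0.0897 and 0.653 CPM in BK EpdSC. It was therefore high in CL HFSC and not in BK HFSC, with a log2 fold change of 5.21 ± 0.96 within CL (adjusted p 0.0228) and no call over both sets (2.61 ± 1.27, adjusted p 0.171).

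All 6 type IV chains were called between HFSC and EpdSC, 4 higher and 2 lower. Col4a3 averaged 10.7 ± 2.81 CPM in HFSC and 0.681 ± 0.119 CPM in EpdSC (3.94 ± 0.31, adjusted p 4.57e-05) and Col4a4 averaged 10.9 ± 4.01 CPM in HFSC and 0.528 ± 0.418 CPM in EpdSC (4.37 ± 0.60, adjusted p 0.00097; SD, n = 4 each). Col4a6 was lower in HFSC, with 157 and 130 CPM in CL HFSC and 65.7 and 60.2 CPM in BK HFSC, against 240 and 217 CPM in CL EpdSC and 152 and 191 CPM in BK EpdSC (-1.07 ± 0.21, adjusted p 0.0059). HFSC lay below EpdSC within each set, although the call was lost within CL alone (-0.73, adjusted p 0.194). Col4a1 and Col4a2 differed in BK (2.08 ± 0.29 and 1.91 ± 0.31, adjusted p 0.00824 and 0.0122) and were not called in CL (0.15 ± 0.35 and 0.34 ± 0.32, adjusted p 0.877 and 0.641). Col4a5 was called over both sets (-0.66 ± 0.21, adjusted p 0.0466) and in neither set alone (adjusted p 0.533 in CL and 0.102 in BK).

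Collagens higher in EpdSC included Col23a1, a transmembrane collagen of epithelial cells, with 30.6 and 60.8 CPM in CL HFSC and 7.21 and 14.5 CPM in BK HFSC, against 159 and 136 CPM in CL EpdSC and 240 and 171 CPM in BK EpdSC. No HFSC library reached the level of an EpdSC library, and the log2 fold change was -2.98 ± 0.59 (adjusted p 0.00648). Col16a1, which sits at the dermal-epidermal junction, averaged 125 ± 73.1 CPM in HFSC and 393 ± 186 CPM in EpdSC (-1.71 ± 0.26, adjusted p 0.00152). Col7a1, the anchoring fibril gene, averaged 399 ± 69 CPM in HFSC and 777 ± 199 CPM in EpdSC (-0.96 ± 0.17, adjusted p 0.00398; SD, n = 4 each). Among fibril-associated collagens, Col14a1 and Col9a3 were higher in HFSC (4.11 ± 0.88 and 2.08 ± 0.50, adjusted p 0.00949 and 0.0168) and Col19a1 lower (-3.38 ± 0.90, adjusted p 0.0251). Col9a2 had no counts in any of the 4 EpdSC libraries, against 0.383 to 1.10 CPM in HFSC, which is at least 5.09-fold higher with a floor of 3 counts per library.

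Markers of other cells moved with these differences in part. The fibroblast list summed to 77.6 to 366.8 CPM in HFSC and 4.67 to 65.6 CPM in EpdSC, and 2 of its 4 tested genes, Fbln1 and Pdgfra, were called higher. Without Fbln1 the sums were 1.04 to 4.06 CPM in HFSC and 0.28 to 2.06 CPM in EpdSC, and in HFSC 2 to 5 of the 12 genes were at 0. Melanocyte genes summed to 6.12 to 82.1 CPM in HFSC and 4.43 to 8.17 CPM in EpdSC, with 3 of 4 tested called higher, and Schwann cell genes to 3.57 to 12.2 CPM in HFSC and 0.598 to 3.24 CPM in EpdSC, with 2 of 3 called higher. The part of melanocyte and Schwann cell RNA in the result was not tested. Of the 21 calls, 11 held in all 15 alternative fits, namely those of Col1a1, Col1a2, Col5a1, Col5a2, Col4a3, Col4a4, Col8a2, Col6a1, Col6a2, Col16a1 and Col23a1.

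**Figure D3:**
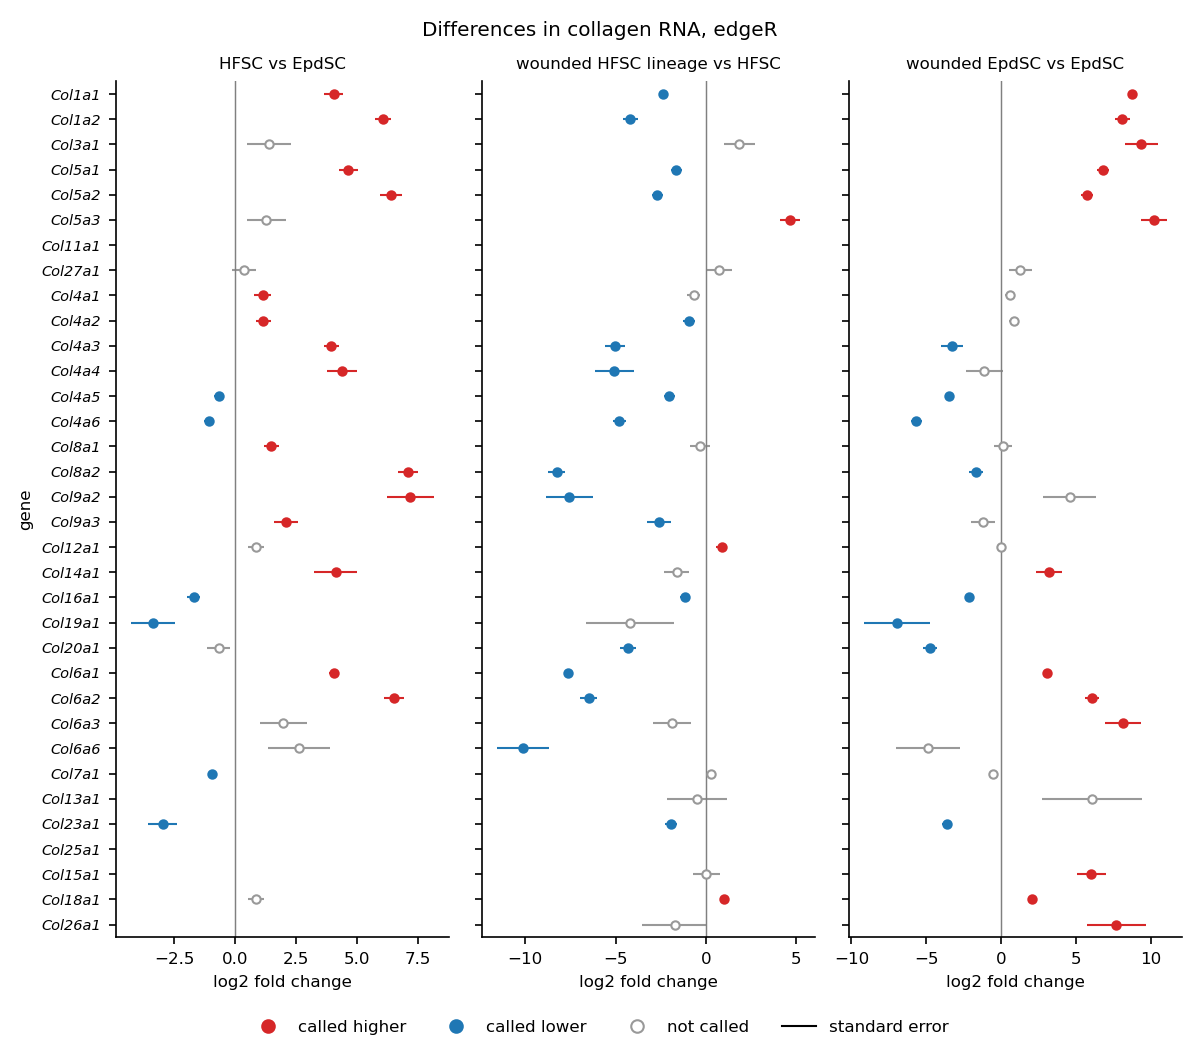
Log2 fold change (point) with its standard error (bar) from edgeR for the 34 named collagens in 3 comparisons, with HFSC over EpdSC on the left, the wounded HFSC lineage over HFSC in the middle and wounded EpdSC over EpdSC on the right, the last 2 within CL. Filled points passed an adjusted p of 0.05. Col1a1, Col1a2, Col5a1, Col5a2, Col6a1 and Col6a2 lie right of 0 in HFSC against EpdSC, left of it in the wounded HFSC lineage and right of it in wounded EpdSC.

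Open chromatin at the promoters was read from the authors' peak lists, with a promoter taken as the 1000 bases on either side of the start site in RefSeq (GRCm38.p6, the build that the mm10 of the files is based on). A start site was found for 33 of the 42 members. In the wound sample 10 of the 33 had a peak, against 57.3% of 16780 genes with a start site. In the tumour sample it was 10 of 33 (54.7% of all genes), in HFSC 18 of 33 (59.2%) and in EpdSC 7 of 33 (44.1%). The lists were pooled, with no replicates, and came from 11140895, 29579794, 26825550 and 13963471 fragments in the order named, so a missing peak in a shallow list is no sign of closed chromatin. Of 12 members with a start site that did not follow fibroblast RNA, 8 had a peak in HFSC and 2 in EpdSC, and of 16 that followed, 8 had one in HFSC and 4 in EpdSC.

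Of the collagens that were called higher in HFSC than in EpdSC, Col8a2, Col6a2, Col1a2 and Col9a2 had a peak in the HFSC list and in none of the other 3 lists. The fold enrichment, which is the authors' value for each peak, was 5.28 for Col8a2, 7.67 for Col6a2, 7.46 for Col1a2 and 3.26 for Col9a2. Col4a6, Col25a1 and Col11a2 also had a peak in HFSC alone (3.97, 6.28 and 3.95), although Col4a6 RNA was lower in HFSC. The share of all genes with a peak in HFSC alone was not counted. Whether these members exceed the general rate therefore cannot be told. Col23a1 had peaks in the wound (4.5), HFSC (6.44) and EpdSC (4.5) lists, and Col4a5 in the wound (9.76), tumour (3.71) and HFSC (6.39) lists. Col4a1 and Col4a2, Col27a1 and Col18a1 had one in each of the 4 lists. None of the 4 lists held a peak at the start of Col3a1, Col6a3, Col6a1, Col5a3 or Col15a1.

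**Figure D4:**
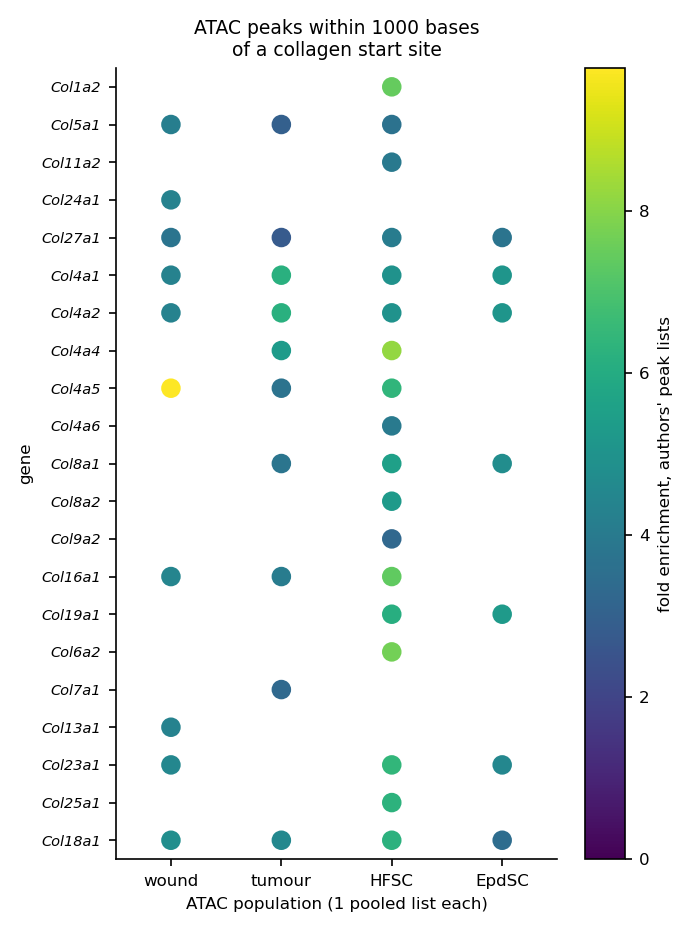
ATAC peaks within 1000 bases of a collagen start site in 4 pooled samples, with each gene that had a peak in at least 1 list down the page and the authors' fold enrichment on the colour scale. HFSC has the most genes with a peak (18 of 33) and EpdSC the fewest (7).

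Promoter sequences from RefSeq (GRCm38.p6) are shown for 5 genes with contrasting RNA and peaks, from 250 bases before to 50 bases after the start site, 5′ to 3′ on the strand of the gene. Capitals mark the GC box GGGCGG (or its complement CCGCCC), the TATA box TATAAA and the AP-1 motif TGANTCA, searched on both strands. Col8a2 (chr4:126286544-126286843, plus strand) and Col6a2 (chr10:76623355-76623654, minus strand) had a peak in HFSC alone. Col6a3 (chr1:90843922-90844221, minus strand) had none in the 4 lists and was at most 2.96 CPM in HFSC. Col23a1 (chr11:51289670-51289969, plus strand) was higher in EpdSC. Col4a2 (chr8:11312555-11312854, plus strand) shares its peak with Col4a1, whose start site on the minus strand lies 21 bases away inside the window.
Col8a2: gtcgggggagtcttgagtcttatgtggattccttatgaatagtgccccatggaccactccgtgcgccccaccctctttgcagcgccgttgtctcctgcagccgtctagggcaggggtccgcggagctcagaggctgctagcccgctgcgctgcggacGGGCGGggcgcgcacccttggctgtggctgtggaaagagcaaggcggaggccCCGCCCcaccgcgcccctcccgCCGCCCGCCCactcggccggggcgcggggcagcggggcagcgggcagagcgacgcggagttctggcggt
Col6a2: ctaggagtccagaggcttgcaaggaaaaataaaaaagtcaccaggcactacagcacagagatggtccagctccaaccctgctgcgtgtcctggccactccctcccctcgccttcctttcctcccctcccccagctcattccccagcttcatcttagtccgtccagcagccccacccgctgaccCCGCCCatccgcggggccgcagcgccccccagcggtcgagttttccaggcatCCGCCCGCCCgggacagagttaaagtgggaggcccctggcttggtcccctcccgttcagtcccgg
Col6a3: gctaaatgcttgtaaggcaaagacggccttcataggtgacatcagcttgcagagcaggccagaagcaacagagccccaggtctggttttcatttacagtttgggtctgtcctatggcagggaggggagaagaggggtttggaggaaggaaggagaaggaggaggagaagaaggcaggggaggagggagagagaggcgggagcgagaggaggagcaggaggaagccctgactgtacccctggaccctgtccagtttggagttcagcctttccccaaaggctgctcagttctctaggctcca
Col23a1: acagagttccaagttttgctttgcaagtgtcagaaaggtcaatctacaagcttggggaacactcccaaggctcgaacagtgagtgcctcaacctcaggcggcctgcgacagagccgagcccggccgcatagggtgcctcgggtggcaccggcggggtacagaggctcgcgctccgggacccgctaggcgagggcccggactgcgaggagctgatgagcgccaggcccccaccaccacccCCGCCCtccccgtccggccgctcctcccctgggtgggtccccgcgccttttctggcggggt
Col4a2: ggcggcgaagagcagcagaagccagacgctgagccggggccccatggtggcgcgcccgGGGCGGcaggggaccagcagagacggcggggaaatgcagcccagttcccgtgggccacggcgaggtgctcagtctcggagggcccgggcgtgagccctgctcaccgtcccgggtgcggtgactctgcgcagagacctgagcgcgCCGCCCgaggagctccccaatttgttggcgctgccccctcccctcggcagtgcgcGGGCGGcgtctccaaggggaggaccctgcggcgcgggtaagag
The windows held 4 GC boxes in Col8a2, 3 each in Col6a2 and Col4a2, 1 in Col23a1 and 0 in Col6a3, and neither of the other motifs, with 2 of the boxes of Col8a2 and of Col6a2 overlapping. Among all 33 promoters of members, 22 (66.7%) held a GC box, 4 (12.1%) a TATA box and 1 (3.03%) an AP-1 motif, against 47.1%, 12.9% and 7.34% of all 16780 promoters of this length. The median GC content was 60.3% in members and 56.7% over all promoters. A match is a description of the letters and does not show that a factor binds there.

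The wounded HFSC lineage was set against unwounded HFSC in CL to ask what becomes of follicle collagens in a wound. Most of the collagens called fell, among them Col8a2, Col6a1, Col6a2, Col4a3, Col4a4, Col1a2 and Col5a2, while Col5a3, Col12a1 and Col18a1 rose. Of 36 members tested in 2 libraries against 2, with the 8 CL libraries fitted together, 3 were called higher and 19 lower. Over all 14831 genes tested, 21.4% were called higher and 24.7% lower. The members' median log2 fold change was -1.97, against -0.1 over all genes.

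Col8a2 read 0.566 and 0.534 CPM in the wounded HFSC lineage, against 179 and 168 CPM in HFSC (log2 fold change -8.25 ± 0.46, adjusted p 3.08e-05). Col6a1 read 0.849 and 0.801 CPM in the wounded HFSC lineage, against 179 and 153 CPM in HFSC (-7.61 ± 0.26, adjusted p 9.86e-06). Both were lower in the wounded lineage than in unwounded EpdSC, where Col6a1 read 8.71 and 7.001 CPM and Col8a2 1.14 and 2.59 CPM. Col6a6 had no counts in the wounded HFSC lineage, against 6.49 and 5.08 CPM in HFSC, at least 52.5-fold lower with a floor of 3 counts per library. Col9a2 had none either, at least 9.05-fold lower.

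In the type IV group 5 of 6 genes were called lower and none higher. Col4a6 read 5.37 and 4.80 CPM in the wounded HFSC lineage, against 157 and 130 CPM in HFSC (-4.78 ± 0.35, adjusted p 6.89e-05), and Col4a5 read 22.8 and 26.7 CPM in the wounded HFSC lineage, against 110 and 96.8 CPM in HFSC (-2.02 ± 0.29, adjusted p 0.00107). Col4a3 and Col4a4 were lower by more than Col4a5, at -5.04 ± 0.54 and -5.08 ± 1.08 (adjusted p 0.000317 and 0.00676). Col4a1 was not called (-0.68 ± 0.35, adjusted p 0.152), and Col4a2 was near the threshold (-0.95 ± 0.33, adjusted p 0.0447) and lost its call without HFSC A (-1.17, 0.0565), HFSC B (-0.67, 0.225) or wounded HFSC lineage A (-0.54, 0.254).

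Of 10 fibril-forming genes tested, 5 fell and Col5a3 rose. Col5a3, a minor type V chain, read 7.42 and 17.4 CPM in the wounded HFSC lineage, against 0.521 and 0.487 CPM in HFSC (4.65 ± 0.57, adjusted p 0.00057). Col18a1 read 562 and 648 CPM in the wounded HFSC lineage, against 287 and 332 CPM in HFSC (1.00 ± 0.20, adjusted p 0.00522). Col12a1, a fibril-associated collagen of tissues under load, averaged 188 ± 25.1 CPM in the wounded HFSC lineage and 106 ± 19.4 CPM in HFSC (SD, n = 2 each; 0.87 ± 0.29, adjusted p 0.0411), a call that was lost without any 1 of the 4 libraries (adjusted p 0.0703 and 0.194 without HFSC A and B, 0.0783 and 0.148 without wounded HFSC lineage A and B). Col3a1 and Col7a1 were not called (1.84 ± 0.86 and 0.26 ± 0.22, adjusted p 0.116 and 0.363).

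In the wounded HFSC lineage the 11 fibroblast genes without Fbln1 summed to 3.82 and 3.97 CPM, against 1.04 and 4.06 CPM in HFSC, and leukocyte genes to 28.1 and 22.4 CPM, against 38.3 and 106.3 CPM. Of the fibroblast list, Fbln1 and Dcn were called higher and 10 of 12 were not called. Acta2, a smooth muscle actin that contracting cells also make, read 424.3 and 379.0 CPM in the wounded HFSC lineage, against 0.827 and 0.325 CPM in HFSC, while Rgs5, Myh11 and Des, the other pericyte and smooth muscle genes, were each at 0 to 0.65 CPM in these 4 libraries. Its part in the result was not tested.

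Wounded EpdSC were set against unwounded EpdSC in the same set. Of the genes tested, 7 of 10 fibril-forming and 3 of 4 type VI genes rose and none of them fell. Those that fell were Col4a5, Col4a6, Col16a1, Col20a1, Col23a1, Col4a3, Col8a2 and Col19a1. Col19a1 read only 0.589 and 0.648 CPM in EpdSC and had no counts in wounded EpdSC. Its call was lost in 8 of 10 alternative fits, and that of Col8a2 in 3 of 11. Of 36 members tested, 14 were called higher and 8 lower in wounded EpdSC, against 30.2% higher and 28.2% lower over all 14831 genes. The median log2 fold change was 0.74, against -0.04 over all genes.

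Col1a1 read 262 and 257 CPM in wounded EpdSC, against 0.547 and 0.583 CPM in EpdSC (log2 fold change 8.79 ± 0.26, adjusted p 1.14e-05). Col3a1 read 182 and 185 CPM in wounded EpdSC, against 0.168 and 0.389 CPM in EpdSC (9.39 ± 1.09, adjusted p 0.000342). Col6a3 read 47.3 and 70.9 CPM in wounded EpdSC, against 0.253 and 0.130 CPM in EpdSC (8.13 ± 1.21, adjusted p 0.00103). Both wounded EpdSC libraries lay far above the unwounded ones, and the wounded HFSC lineage had 0.953 to 3.47 CPM of Col1a1 and Col3a1 and 0.381 and 0.424 CPM of Col6a3. Col26a1, at 0 counts in EpdSC and 1.10 and 1.09 CPM in wounded EpdSC, was at least 6.85-fold higher, and Col24a1 at least 3.11-fold. Col18a1 read 1093 and 981 CPM in wounded EpdSC, against 267 and 217 CPM in EpdSC (2.05 ± 0.21, adjusted p 0.000187).

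Markers of other cells rose in the same libraries, while 4 of the 7 keratinocyte genes were called lower and 1 higher. Trp63 read 280 and 475 CPM in wounded EpdSC, against 1262 and 1211 CPM in EpdSC. Krt14 read 104500 and 57750 CPM in wounded EpdSC, against 12770 and 13020 CPM in EpdSC. The 11 fibroblast genes without Fbln1 summed to 50 and 48.5 CPM in wounded EpdSC, against 1.73 and 1.36 CPM in EpdSC, with 12 of 12 genes of the whole list above 0 in both wounded libraries and 11 of 12 called higher. The 5 leukocyte genes summed to 3548 and 2635 CPM in wounded EpdSC, against 29.9 and 18.9 CPM in EpdSC, and 5 of 5 were called higher. Endothelial genes summed to 15.9 and 11.4 CPM in wounded EpdSC, against 0.673 and 0.519 CPM in EpdSC. Acta2 read 1127 and 563.5 CPM in wounded EpdSC, against 1.73 and 2.20 CPM in EpdSC. The other genes of its list, Rgs5, Myh11 and Des, were at only 0.0526 to 1.05 CPM in wounded EpdSC. Of the melanocyte genes, 4 of 5 were called higher. Their part in the result was not tested. Of the members called higher, 14 of 14 followed fibroblast RNA in the ranking above, and of those called lower, 8 of 8 did not, but the ranking used these libraries and is no independent support.

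The wounded EpdSC library of the set BK, whose column name in the count table holds a tag that the labels do not explain, did not show the rise. Col1a1 read 0.101 CPM in it, against 1.2 and 0.607 CPM in BK EpdSC, and Col6a1 read 2.62 CPM, against 48.8 and 51.0 CPM. Its 11 fibroblast genes without Fbln1 summed to 2.27 CPM and its leukocyte genes to 18.9 CPM. Of 33 members tested with this single library against 2, 0 were called higher and 8 lower by edgeR, against 1.77% higher and 6.21% lower over all 14663 genes, with 0 higher and 16 lower at an unadjusted p under 0.05, and DESeq2 was not run on this set. The 8 were Col4a1, Col4a2, Col4a5, Col4a6, Col6a1, Col7a1, Col8a2 and Col16a1, at -2.37, -3.58, -3.06, -3.59, -4.23, -3.70, -3.59 and -2.69. With 1 wounded library in BK, the spread of wounded EpdSC was not measured there, and the test takes it to be like that of the other libraries. Of the genes called lower in CL, Col4a5, Col4a6, Col8a2 and Col16a1 were among the 8, and 10 genes named as rising in CL pointed down in BK, of which Col6a1 passed the test (adjusted p 0.0445).

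In wounded EpdSC of CL, 3 of 6 type IV genes tested (Col4a3, Col4a5 and Col4a6) and 1 of 2 transmembrane genes tested (Col23a1) fell, and no gene of either group rose. Col4a6 read 6.47 and 2.92 CPM in wounded EpdSC, against 240 and 217 CPM in EpdSC (-5.67 ± 0.37, adjusted p 3.48e-05), and Col4a5 read 8.94 and 14.8 CPM in wounded EpdSC, against 132 and 122 CPM in EpdSC (-3.45 ± 0.30, adjusted p 0.000109). Col23a1 read 11.5 and 13.0 CPM in wounded EpdSC, against 159 and 136 CPM in EpdSC (-3.63 ± 0.35, adjusted p 0.000146), and Col16a1 averaged 126 ± 19.4 CPM in wounded EpdSC and 546.5 ± 48.1 CPM in EpdSC (SD, n = 2 each; -2.16 ± 0.27, adjusted p 0.000493). Col20a1, a fibril-associated collagen, read 0.421 and 0.655 CPM in wounded EpdSC, against 12.7 and 16.6 CPM in EpdSC (-4.78 ± 0.47, adjusted p 0.000171). Its relative Col14a1 rose, at 1.79 and 1.40 CPM in wounded EpdSC, against 0.0842 and 0.259 CPM in EpdSC (3.22 ± 0.86, adjusted p 0.0137). Its log2 fold change was 2.54 without EpdSC A, where the call was lost, and 0.32 in BK. Col7a1 was not called (-0.53 ± 0.22, adjusted p 0.0687), nor were Col4a1 and Col4a2 (0.61 ± 0.35 and 0.87 ± 0.33, adjusted p 0.168 and 0.0504). In both wounded populations 7 genes were called lower, namely Col16a1, Col20a1, Col23a1, Col4a3, Col4a5, Col4a6 and Col8a2. Of the others, 2 rose in both (Col18a1 and Col5a3) and 6 fell in the wounded HFSC lineage and rose in wounded EpdSC (Col1a1, Col1a2, Col5a1, Col5a2, Col6a1 and Col6a2). The shares of all genes called in both populations were not counted. Whether these overlaps are particular to collagens therefore cannot be told.

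The wounded HFSC lineage was then compared with wounded EpdSC, both sorted by the same gate apart from YFP. Of 36 members tested, 1 was called higher and 13 lower in the wounded HFSC lineage, against 6.8% higher and 12.4% lower over all 14831 genes. Col4a5 was the gene called higher (1.07 ± 0.28, adjusted p 0.0417), and its call was lost without wounded EpdSC A (adjusted p 0.0856) and without wounded HFSC lineage A or B (0.103 and 0.228). Col23a1, Col4a6 and Col8a2, which were called between unwounded HFSC and EpdSC, were not called here, with log2 fold changes of -0.04 ± 0.32, 0.16 ± 0.32 and -0.05 ± 0.49 (adjusted p 0.935, 0.716 and 0.945). Nor were Col4a3 at 2.20 ± 0.77 and Col16a1 at -0.66 ± 0.26 (adjusted p 0.069 and 0.0917). These misses do not show that the levels are equal. The 13 lower genes included 6 of 10 fibril-forming and 3 of 4 type VI genes tested, with Col1a1 at -8.01 ± 0.24 (adjusted p 1.44e-05) and Col6a1 at -6.32 ± 0.25 (5.81e-05). All 13 followed fibroblast RNA, in a ranking that used these libraries and is no independent support. Alongside them 8 of 12 fibroblast genes and 5 of 5 leukocyte genes were called lower, and their part in the result was not tested. Without wounded HFSC lineage A, 6 members were called, and the calls of Col1a1, Col1a2, Col3a1, Col5a1, Col6a1 and Col6a2 held in all 10 alternative fits.

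The difference between the 2 wound responses, tested directly as an interaction, was called for 17 of 36 members, 2 higher and 15 lower in the HFSC lineage, against 5.31% higher and 10.5% lower over all 14831 genes. The members' median was -2.9, against -0.06 over all genes. Col6a2 differed by -12.57 ± 0.67, Col1a2 by -12.29 ± 0.65, Col1a1 by -11.14 ± 0.32 and Col6a1 by -10.66 ± 0.33 (adjusted p 0.000165, 0.000165, 9.12e-06 and 9.12e-06). In the positive direction stood Col23a1 at 1.71 ± 0.45 and Col4a5 at 1.43 ± 0.39 (adjusted p 0.04 and 0.0466), both of which fell in either population and fell less in the HFSC lineage. The count moved with single libraries, to 7 and 8 without EpdSC A and B, 10 and 9 without HFSC A and B and 11 without wounded HFSC lineage A. The differences of Col1a1, Col1a2, Col5a1, Col5a2, Col8a2, Col6a1 and Col6a2 were called in each of the alternatives, and those of Col23a1 and Col4a5 were lost in 7 and 8 of them.

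In the tumours, A6 high cells were compared with A6 low cells within genotype, to ask which collagens go with the integrin that marks basal cells. Of the genes tested, 5 of 11 fibril-forming, 3 of 6 type VI and 1 of 3 transmembrane genes (Col25a1) were called lower in A6 high cells, and none of the 6 type IV genes nor Col7a1 was called. Of 38 members tested, 0 were called higher and 10 lower by edgeR, against 0.152% higher and 3% lower over all 15113 genes. At an unadjusted p under 0.05 there were 1 higher and 19 lower, and DESeq2 called 0 higher and 14 lower. The members' median log2 fold change was -1.24, against 0.05 over all genes.

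Col1a1 read 567, 224 and 460 CPM in A6 high tumour cells of HRas, HRas TbrKO and TbrKO, against 2770, 2726 and 1440 CPM in A6 low cells of the same genotypes (log2 fold change -2.47 ± 0.40, adjusted p 0.0459). Col3a1 read 818, 335 and 572 CPM in A6 high cells, against 4423, 3629 and 1820 CPM in A6 low cells (-2.47 ± 0.36, adjusted p 0.0399). Col6a1 read 95.5, 45.0 and 136 CPM in A6 high cells, against 467, 394 and 477 CPM in A6 low cells (-2.37 ± 0.27, adjusted p 0.0255). For each of the 3 genes the gates did not overlap, and Col6a3 and Col6a2 were lower by -2.65 ± 0.24 and -2.39 ± 0.25 (adjusted p 0.0221 and 0.0246). The other calls were Col1a2, Col5a3, Col27a1, Col25a1 and Col15a1, at -2.39, -2.11, -1.97, -2.49 and -1.22.

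The fibroblast list moved by about as much, with 8 of 12 genes called lower in A6 high cells, Dcn by -2.63 ± 0.15 and Pdgfra by -2.62 ± 0.17, and no gene of the list at 0 in a tumour library. Without Fbln1 its sums were 242, 118 and 198 CPM in A6 high cells, against 1209, 799 and 931 CPM in A6 low cells, although the sort asked for GFP+ tumour cells. Leukocyte genes summed to 252, 377 and 174 CPM in A6 high cells, against 779, 1263 and 562 CPM in A6 low cells. Their part in the result was not tested. All 10 genes called followed fibroblast RNA, in a ranking that used these libraries. The number of calls moved with single genotypes. It was 0 without HRas and 0 without HRas TbrKO (15 and 14 lower at an unadjusted p under 0.05). It was 24 lower without TbrKO and 0 with no genotype block. In that order these fits called 0 of 14689, 0 of 14736, 2908 of 14694 and 0 of 14519 genes, against 476 of 15113. The loss and gain of calls thus ran over all genes and was not particular to collagens.

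Col4a5 and Col4a6 differed between the tumours of different genotypes, in 1 library per gate and genotype and so with no test. Col4a6 read 92.0 CPM in TbrKO tumours against 0.952 in HRas and 0.315 in HRas TbrKO among A6 high cells, and 40.9 CPM in TbrKO against 0.954 in HRas and 1.61 in HRas TbrKO among A6 low cells. Col4a5 read 151 CPM in TbrKO against 13.9 in HRas and 4.23 in HRas TbrKO among A6 high cells, and 130 CPM in TbrKO against 10.2 in HRas and 5.94 in HRas TbrKO among A6 low cells. The Tbr skin libraries had 63.1 CPM of Col4a5 in HFSC and 126 CPM in EpdSC, and 49.1 CPM of Col4a6 in HFSC and 166 CPM in EpdSC. The same split was seen for Col9a3, a chain of the fibril-associated type IX collagen, with 42.2 and 78.2 CPM in A6 high and A6 low TbrKO cells and 1.47 to 2.01 CPM in the other 4 tumour libraries. It was also seen for Col11a1, with 32.1 and 9.06 CPM in A6 high and A6 low TbrKO cells and 0.245 to 5.30 CPM in the others. Col13a1, a transmembrane collagen, ran the other way, with 0.506 and 0.791 CPM in A6 high and A6 low TbrKO cells and 7.29 to 15.7 CPM in the other 4 libraries. With 1 library each, the genotype and the single tumour or pool cannot be told apart.

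**Figure D5:**
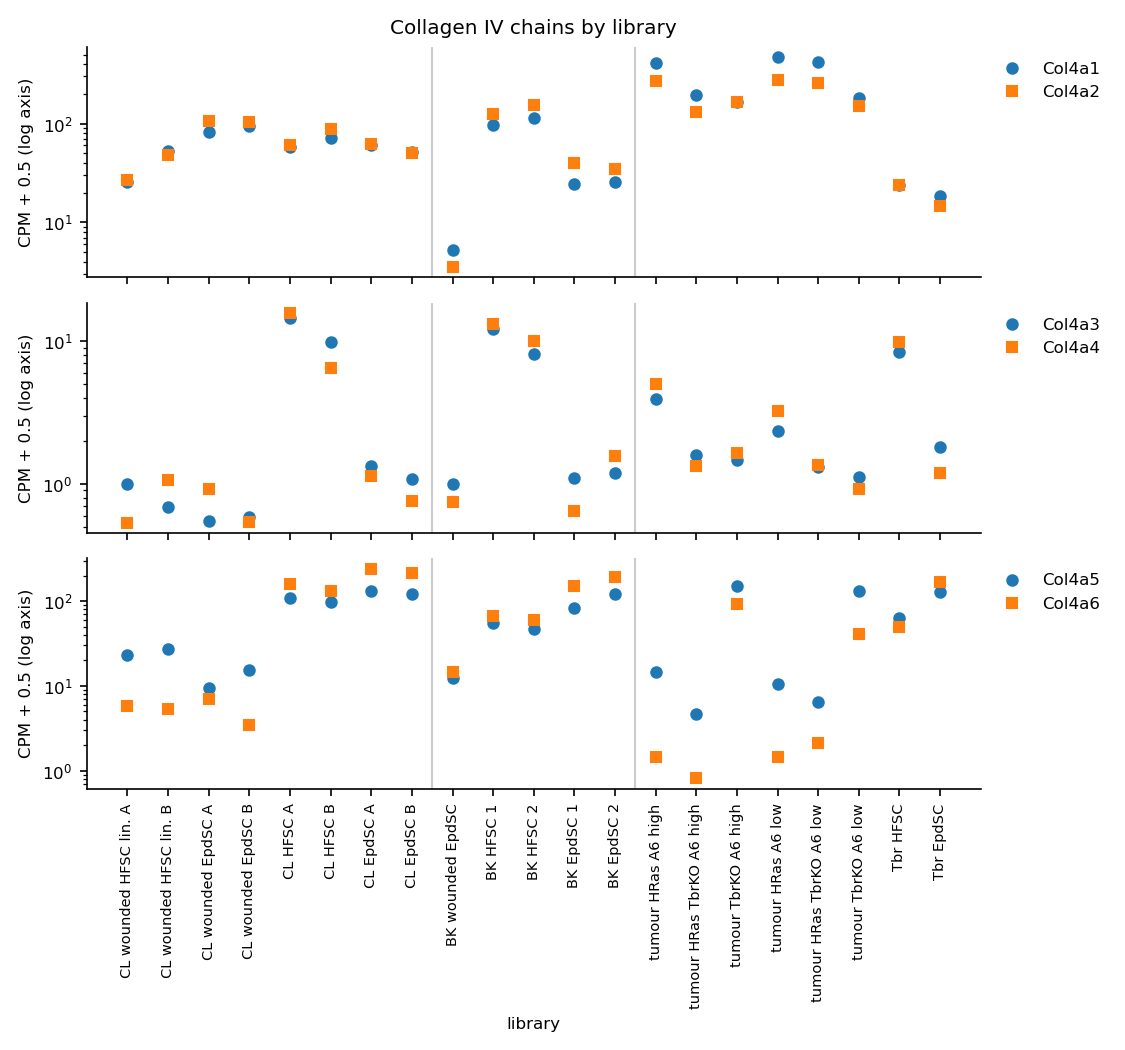
CPM + 0.5 of the 6 type IV collagen genes in each RNA library on log axes, in 3 panels of 2 genes each, with grey lines between the sets CL, BK and DS. In the lower panel Col4a5 and Col4a6 drop in the wounded libraries and in HRas and HRas TbrKO tumours and stay up in TbrKO tumours (151 and 92.0 CPM in A6 high cells), and in the middle panel Col4a3 and Col4a4 stand out in HFSC.

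The levels of 4 pairs of type IV and type VI genes were compared over the 21 libraries. Spearman's rho was 0.98 for Col4a1 with Col4a2, 0.91 for Col4a3 with Col4a4, 0.84 for Col4a5 with Col4a6 and 0.88 for Col6a1 with Col6a2. Col4a1 and Col4a2 run in opposite directions with start sites 21 bases apart (chromosome 8, 11312826 on the minus strand and 11312805 on the plus strand), and Col4a6 and Col4a5 do so 1343 bases apart on chromosome X (141474076 and 141475419). The ratio of the 2 levels stayed within 0.609 to 1.71 for Col4a1 over Col4a2 and ranged from 0.537 to 14.7 for Col4a5 over Col4a6, with the high ratios in HRas tumours. It ranged from 0.125 to 14.0 for Col4a3 over Col4a4 and from 0.902 to 99 for Col6a1 over Col6a2. These correlations are a description over libraries that share sets and depth.

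Against the Tbr skin stem cells of the same set, 1 HFSC and 1 EpdSC library, A6 high tumour cells carried more RNA of 15 collagens and less of 1. The share was 15 and 1 of 39 members tested, against 11.9% higher and 9.56% lower over all 15471 genes, with a members' median of 2.94, against 0.12 over all genes. Col3a1 read 818, 335 and 572 CPM in A6 high tumour cells, against 2.26 and 1.52 CPM in Tbr HFSC and EpdSC (8.27 ± 0.75, adjusted p 0.00282). Col4a1 and Col4a2 were higher by 3.65 ± 0.62 and 3.34 ± 0.48 (adjusted p 0.0116 and 0.00783), and Col18a1 read 1468, 892 and 884 CPM in A6 high tumour cells, against 187 and 96.3 CPM (2.94 ± 0.60, adjusted p 0.0189). The other 4 type IV genes were not called. Col15a1, the relative of Col18a1, read 41.3, 20.8 and 12.4 CPM in A6 high tumour cells, against 0 and 0.123 CPM (3 counts in all; adjusted p 0.00747). Col13a1 read 15.7, 7.73 and 0.506 CPM in HRas, HRas TbrKO and TbrKO A6 high cells and had no counts in the skin libraries, and its call was lost in 5 of 9 alternative fits (adjusted p up to 0.154).

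The gene called lower was Col23a1, with 12.5, 9.62 and 11.4 CPM in A6 high tumour cells, against 21.8 CPM in Tbr HFSC and 207 CPM in Tbr EpdSC (-3.30 ± 0.82, adjusted p 0.0321). That call was lost in 4 of 9 alternative fits. Without the Tbr EpdSC library the log2 fold change was -0.97. Without the HRas or the HRas TbrKO A6 high library it was -3.41 and -3.21 and was not called (adjusted p 0.0932 and 0.0999). Col6a1 was not called (0.05 ± 0.58, adjusted p 0.957), with 95.5, 45.0 and 136 CPM in A6 high tumour cells, against 136 and 40.7 CPM, and Col8a2 missed the threshold at 0.460, 0.315 and 2.17 CPM, against 143 and 0.452 CPM (-6.23 ± 1.86, adjusted p 0.0511). Of the fibroblast list 11 of 12 genes and of the endothelial list 5 of 5 were called higher in A6 high tumour cells, and the endothelial genes had summed levels of 171, 96.9 and 50.9 CPM, against 1.84 and 1.32 CPM in Tbr HFSC and EpdSC. The part of both lists in the result was not tested. The number of calls fell to 9 without Tbr EpdSC and to 8 without the HRas A6 high library, and the calls of Col1a1, Col3a1, Col5a3, Col4a2, Col6a3 and Col15a1 held in each alternative fit.

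Genes that fold, cut, crosslink, bind or degrade collagen were counted by list, with all genes of the table as the background given above. In HFSC against EpdSC, 5 of 9 tested genes for propeptide cleavage and crosslinking were called higher and 1 lower, and 5 of 17 folding genes were called higher and 3 lower. Loxl1, a lysyl oxidase, read 1.41 to 9.58 CPM in HFSC and 0 to 0.0299 CPM in EpdSC (adjusted p 5.6e-05), Pcolce2, which enhances propeptide removal, was higher by 6.32 ± 0.59, and the collagen chaperone Fkbp10 by 5.26 ± 0.39. Adamts14, a propeptidase, was lower in HFSC, with 4.76 to 14.9 CPM against 140.6 to 325.4 CPM in EpdSC (-4.85 ± 0.36, adjusted p 3.75e-05).

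Of 7 collagen breakdown genes tested, 3 rose and none fell in the wounded HFSC lineage, and 4 rose and 1 fell in wounded EpdSC. Mmp13, a collagenase, read 272 and 330.5 CPM in the wounded HFSC lineage, against 0.153 and 0.284 CPM in HFSC (10.48 ± 0.69, adjusted p 8.57e-05), and 82.7 and 194.5 CPM in wounded EpdSC, against 0 and 0 CPM in EpdSC. It read 128 CPM in the BK wounded EpdSC library, in which no collagen was called higher, against 24.0 and 8.45 CPM in BK EpdSC. P4ha3, a subunit of prolyl hydroxylase, rose in both, with 10.01 and 7.17 CPM in the wounded HFSC lineage, against 0 and 0.366 CPM in HFSC (adjusted p 0.00358), and 10.2 and 6.2 CPM in wounded EpdSC, against 0 and 0 CPM in EpdSC (adjusted p 0.00175). Of 12 cleavage and crosslinking genes tested, 2 rose and 6 fell in the wounded HFSC lineage, and 9 rose and 2 fell in wounded EpdSC. Loxl1 read 0.0707 and 0 CPM in the wounded HFSC lineage, against 1.41 and 2.88 CPM in HFSC (adjusted p 0.00255), and 9.57 and 6.72 CPM in wounded EpdSC, against 0 and 0 CPM in EpdSC (adjusted p 0.000525), so it fell in the wounded HFSC lineage and rose in wounded EpdSC. Of 19 folding genes, 7 rose and 5 fell in the wounded HFSC lineage and 10 rose and 3 fell in wounded EpdSC.

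Of 7 collagen receptor genes tested, 2 rose and 2 fell in each wounded population. Ddr2, a receptor kinase that fibrillar collagen activates, rose by 5.05 ± 0.37 in the wounded HFSC lineage (adjusted p 6.74e-05). It was also higher there than in wounded EpdSC, by 1.69 ± 0.32 (adjusted p 0.0149), the opposite direction to the fibrillar collagens. Of 4 basement membrane partners, Nid1 rose and Agrn and Hspg2 fell in the wounded HFSC lineage, and 2 rose and 1 fell in wounded EpdSC. In A6 high against A6 low tumour cells no gene of these lists was called higher, and 1 of 19 folding genes, 2 of 12 cleavage and crosslinking genes, 1 of 7 receptors, 2 of 7 breakdown genes and 1 of 4 partners were called lower, with Adamts2 at -2.62 ± 0.24, Loxl1 at -2.43 ± 0.41 and Mmp2 at -2.23 ± 0.30. Against the Tbr skin stem cells, 6 folding genes, 5 cleavage and crosslinking genes, 2 receptors, 3 breakdown genes and 3 partners were called higher in A6 high tumour cells, and 1 folding and 1 cleavage gene lower. Lair1, an inhibitory receptor, read 1.74, 2.48 and 1.41 CPM in A6 high tumour cells and 0 CPM in both skin libraries, Nid1 was higher by 7.48 ± 0.48 and the crosslinking enzyme Lox by 7.24 ± 1.36, and Adamts14 was lower by 4.40 ± 1.30 on the log2 scale.

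The 8 members that met none of the rules for naming, Col2a1, Col11a2, Col24a1, Col10a1, Col22a1, Col6a4, Col6a5 and Col28a1, were between 0 and 13.0 CPM in the 21 libraries, the highest being Col6a5 in A6 low TbrKO tumour cells. Their low counts limit what a test could show.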

How the data were processed

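RNA was measured in 21 libraries of total RNA with a TruSeq kit and single reads, and open chromatin by paired-end ATAC-seq in 4 samples. The deposited RNA values are whole-number counts per gene symbol, not normalized. STAR, Bowtie, Picard, MACS2 2.1.1.20160309 and the build mm10 are named in the submitters' processing notes. Gene counter, annotation and strand setting are not given in the sources used here. Peak lists are the authors' pooled calls, 1 per sample type, with pileup signal, fold enrichment (a ratio) and −log10 p and q values per the file headers, whose −log10 names were damaged and were read in the order MACS2 writes them.

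Counts were fitted with edgeR 4.0.16 in R 4.3.3 (TMM, filterByExpr, quasi-likelihood test, Benjamini-Hochberg adjustment over all genes tested, threshold 0.05), and DESeq2 1.42.0 was an alternative. HFSC were compared with EpdSC with the set as a block, wound comparisons within the 8 CL libraries, and tumour gates with genotype as a block. Tumour against skin was fitted over all DS libraries with no block. A6 high, A6 low and Tbr skin cells had a single mean each, so genotype and lineage enter the spread. Standard errors are the log2 fold change over the square root of F. CPM used TMM factors over 21 libraries, and logs in the figures added 0.5. The deposited signal and p values were not tested. Scripts were tested on simulated data. Figures and peak tables were made with Python 3.11.15, pandas 2.3.3 and matplotlib 3.10.9.

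The members, gene lists and classes were chosen with earlier results of these data known. Members are named where they are among 5 markers given with the gene family, called in 2 or more of 7 comparisons, among the 4 largest changes per direction of a comparison, or at 20 CPM or more on average in a group. Of other lists the largest changes are named, at most 3 per direction; Fbln1, Dcn, Lum, Acta2 and the BK level of Mmp13 were named after their values were seen. Samples carry a wound biopsy text also where title and cell type are unwounded, and were grouped by title and cell type. Replicate numbers were not used to pair the samples. Same-numbered libraries deviated together at a correlation of 0.377 for the 2 wounded CL groups and at -0.196 to 0.0308 for the others. Replicates of a group differed by more than sampling noise. Fibroblast genes were counted with and without Fbln1, and the count without it was added after seeing the data.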

Additional observations from a re-analysis of the deposited data

Results flagged for a closer look

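In the 4 unwounded EpdSC libraries, 1 library stood apart from the others for each of 3 genes by Dixon's test at the 95% level. Col1a1 was 1.2 CPM in BK EpdSC 1, with 0.547 to 0.607 CPM in the others. Col5a2 was 2.8 CPM in BK EpdSC 2, with 0.463 to 0.658 CPM in the others, and Col19a1 was 3.03 CPM there, with 0.589 to 0.927 CPM in the others. These were 3 of 47 groups of 4 tested, and chance flags about 1 in 20.

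For 17 members the wound response of the HFSC lineage differed from that of EpdSC within CL by the interaction test of edgeR. The log2 difference was below 0 for 15, at -12.57 for Col6a2, -12.29 for Col1a2, -11.14 for Col1a1, -10.66 for Col6a1, -9.98 for Col6a3, -8.46 for Col5a1, -8.45 for Col5a2, -7.55 for Col3a1, -6.57 for Col8a2, -6.01 for Col15a1, -5.57 for Col5a3, -4.84 for Col14a1, -1.82 for Col4a2 and -1.05 for Col18a1. Col9a2, fitted at -12.15, had libraries without counts in 2 groups, so that its value depends on the prior count. The difference was above 0 for Col23a1, at 1.71, and Col4a5, at 1.43. Each direction rests on 2 libraries per group.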

How the results depend on the processing

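Of 119 calls of named members, 49 held in every alternative, 11 of 21 in HFSC against EpdSC, 15 of 21 in the wounded HFSC lineage against HFSC, 4 of 21 in wounded EpdSC against EpdSC, 6 of 14 between the wounded populations, 7 of 17 in the difference, 0 of 10 between tumour gates and 6 of 15 in tumour against skin. With BK in place of CL, 8 members were called in wounded EpdSC and 10 log2 fold changes turned negative, -3.11 for Col1a1, -1.05 for Col1a2, -1.14 for Col3a1, -0.91 for Col5a1, -1.86 for Col5a2, -2.37 for Col5a3, -4.23 for Col6a1, -2.47 for Col6a2, -2.34 for Col6a3 and -1.74 for Col18a1 (adjusted p 0.0445 for Col6a1 and 0.0576 to 0.623 for the others); the cause was not tested. Leaving out 1 library at a time gave 6 to 14 calls between the wounded populations, 7 to 18 in the difference and 8 to 19 in tumour against skin, where fitting only the libraries compared gave 10. Between tumour gates, leaving out a genotype gave 0 to 24, RLE factors 5 and no genotype block 0. Over all genes the same fits called 0 to 2908, 256 and 0, against 476 in the main fit. Members following fibroblast RNA numbered 13 without the tumours, 11 in CL alone, 6 without Fbln1 and the tumours and 15 without Fbln1 in CL alone. At a −log10 q of 10 or more, promoter peaks remained for 1 member in the wound, 2 in the tumour, 12 in HFSC and 0 in EpdSC; of the peaks in HFSC alone, those of Col8a2 (9.79), Col4a6 (6.57), Col11a2 (4.98) and Col9a2 (3.01) lay below it. With the replicate number as a block, 17, 21, 21, 13 and 15 members were called in the 5 comparisons outside the tumours. Same-numbered libraries of the 2 wounded CL groups had a correlation of 0.377, other CL pairs -0.118 to 0.0308 and BK libraries -0.196. Whether the wounded CL libraries were paired cannot be told from this, and the main fits used no pairing. RLE factors moved the median of all genes to 0.07, against -0.04, in wounded EpdSC and to -0.17, against -0.06, in the difference. Few libraries per group and low counts limit what these tests could show.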
